A study of Mus musculus with 29 samples.

Results

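A set of 9 genes whose proteins hold heterochromatin at the nuclear envelope, or write and read its main histone mark, were followed through sorted bipolar cells and photoreceptors of the mouse retina. They were *Lbr*, *Lmna*, *Lmnb1*, *Lmnb2*, *Cbx1*, *Cbx3*, *Cbx5*, *Suv39h1* and *Suv39h2*. They were chosen by symbol in the RNA-seq table, and all 9 of these genes were found among its 24062 entries. All 9 passed the filter on low counts that left 14024 genes to test. In RefSeq on GRCm38, *Lbr* spans chr1:181815315-181842401, *Lmna* chr3:88481148-88509932, *Lmnb2* chr10:80901363-80918245, *Cbx1* chr11:96788680-96808982, *Cbx3* chr6:51470154-51483704, *Cbx5* chr15:103191546-103239904, *Suv39h1* chrX:8061171-8074760 and *Suv39h2* chr2:3455815-3474986, and *Lmnb1* lies on chromosome 18.

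RNA-seq was measured in 15 libraries, 3 from each of 5 populations, and accessibility (ATAC-seq) in 2 libraries from each of 6. Bipolar cells were sorted at postnatal day 42 to 48 by GFP knocked into the endogenous *Otx2* locus (Otx2-GFP+/-), so these mice carry 1 tagged allele of a regulator that bipolar cells express. Pan-BC came from a single sort of the GFP-bright cells, a gate next to the weakly fluorescent photoreceptors. ON-BC and OFF-BC came from mice that also carried Grm6-YFP, in which the *Grm6* promoter drives YFP in ON bipolar cells, and of the bipolar groups OFF-BC alone were sorted a second time. The labels of the pan-BC ATAC-seq libraries list Grm6-YFP as well. Rods (Nrl-eGFP) and Nrl-/- photoreceptors (Nrl-eGFP; NrlKO), used by the study as a stand-in for blue cones and called blue cones here, were sorted once at day 56 and come from earlier work of this laboratory. Green cones (Opn1mw-GFP) were measured by ATAC-seq alone, and 2 more green cone libraries, sorted again, entered through their peaks, which makes 14 libraries with peak lists. Cell class, study and age therefore cannot be told apart in any comparison of bipolar cells with photoreceptors. Values are normalized counts, that is reads divided by 1 size factor per library. Differences are on the scale of log2(normalized count + 1), which understates those of low genes. Each was tested with limma in 2 ways, against a change of 2-fold (treat, "past 2-fold") and against 0, with p-values adjusted over all genes or regions and called under 0.05.

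In most nuclei, heterochromatin is tethered to the inner nuclear membrane by LBR, a membrane protein that binds B-type lamins and HP1, and by lamin A/C, the product of *Lmna*. Mouse rods are the textbook exception: their nuclei are inverted, with heterochromatin packed in the centre, and their mature nuclei are known to lack both tether proteins. The *Suv39h* enzymes trimethylate lysine 9 of histone H3, and the HP1 proteins, encoded by *Cbx1*, *Cbx3* and *Cbx5*, bind that mark. What was counted here is mRNA, not protein, and in sorted bulk samples fewer cells of a type and less RNA per cell cannot be told apart.

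Assigned reads per library ran from 12329548 to 26266746 (RNA-seq) and from 4176776 to 12345845 (ATAC-seq). *Nrl*, the deleted gene, was read at 11476, 16599 and 14469 in rods and at 657, 764 and 486 in the Nrl-/- libraries, so it was lower in 3 of 3 of them without being at 0. The bipolar marker sum ran from 105175 to 157696 in the 9 bipolar libraries, from 26329 to 30651 in blue cones and from 1477 to 2058 in rods, and no marker of the 8 was at 0 in every library of a population. The rod marker sum was 1791940 to 2464530 in rods, 167933 to 258135 in blue cones and 3580 to 41852 in bipolar cells. OFF-BC replicate 3 stood apart, with a cone marker sum of 90608 against 20860 and 22439 in the other OFF-BC libraries, and with the highest rod marker sum of its group (17891). The cone marker sum of pan-BC was 40656 to 66441, above ON-BC (4071 to 4703) and rods (10697 to 10828). Without OFF-BC replicate 3 the same number of the 9 genes, 1, was called between ON-BC and OFF-BC.

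*Lbr* RNA was present in every population and was highest in rods, the cells whose mature nuclei are described as lacking LBR protein. It was read at 1833, 1869 and 2049 in rod libraries, 1584, 1612 and 1392 in blue cones, 682, 665 and 686 in pan-BC, 649, 669 and 676 in ON-BC, and 789, 825 and 669 in OFF-BC. The photoreceptor libraries all lay above the bipolar ones, and the 3 bipolar populations overlapped. Rods held 2.83-fold the pan-BC mean (1917 ± 116 against 678 ± 11.4, SD, n = 3), a difference past 2-fold (log2 fold change, pan-BC minus rod, -1.50, SE 0.10, limma treat adjusted p = 0.000231). The 2.26-fold difference of blue cones from pan-BC was called against 0 (adjusted p = 1.74e-08) but not past 2-fold (adjusted p = 0.135). Rods and blue cones, neighbours in the order of levels, also differed (log2 0.33, adjusted p against 0 = 0.0102).

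The *Lbr* start site (chr1:181842365-181842564, 63 bp upstream of the start to the centre of the region) had the same order in ATAC-seq. It held 1033 and 990 normalized reads in rods, 812 and 770 in blue cones, 715 and 760 in green cones and 455 to 515 in the 6 bipolar libraries. No bipolar library reached any photoreceptor library. Over all promoter regions, defined below, the median log2 difference was 0.36 for rod minus blue cone and 0.4 for rod minus green cone. At the *Lbr* start these differences were near those medians, at 0.32 to 0.39 and 0.41 to 0.50 with 1 library left out. The pan-BC to rod difference there was called against 0 but not past 2-fold (log2 -1.11, adjusted p = 3.66e-07 and 0.302), where the median of all promoter regions was -0.37. Its sequence is shown because it is the start of *Lbr*, open in every library, with CG dinucleotides in capitals. This and the sequences below are plus-strand genome sequence of GRCm38.p6 as RefSeq gives it.
Lbr start: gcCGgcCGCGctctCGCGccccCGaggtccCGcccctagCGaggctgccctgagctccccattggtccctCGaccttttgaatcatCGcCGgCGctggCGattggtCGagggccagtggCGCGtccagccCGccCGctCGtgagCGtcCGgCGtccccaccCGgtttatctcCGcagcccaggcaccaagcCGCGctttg
It holds 26 CG, where the 15773 promoter regions of the table, those within 1000 bp upstream to 100 bp downstream of a RefSeq start, have a median of 17 (quartiles 10 and 23).

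Among the 7 regions assigned to *Lbr*, a distal one lay 69205 bp downstream of the start. It held 44.0 and 22.2 in pan-BC, 50.8 and 86.4 in the ON-BC libraries, 5.39 and 0 in the OFF-BC ones, 1.56 and 0 in rods, 5.18 and 1.45 in the blue cones and 3.07 and 2.82 in green cones. Reads were thus found there in pan-BC and ON-BC, and a few or none elsewhere, while no difference in *Lbr* RNA was called between ON-BC and OFF-BC (log2 -0.19, 95% interval -0.40 to 0.02). The ON-BC to OFF-BC difference of the region passed 2-fold (log2 4.73, adjusted p = 0.00653).

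*Lmna*, which encodes lamins A and C, had the largest fold change of the 9 between rods and the other populations. It was read at 4.85, 2.05 and 4.32 in rods, which is 5, 2 and 4 reads. It stood at 412, 452 and 404 in pan-BC, 499, 292 and 420 in the ON-BC, 338, 266 and 347 in the OFF-BC, and 118, 158 and 150 in blue cones. Every rod library was far below every other library, blue cones lay between rods and bipolar cells, and the bipolar populations overlapped except that the 3 pan-BC libraries all exceeded the 3 OFF-BC ones. The pan-BC mean was 113-fold the rod mean (log2 6.53, SE 0.26, treat adjusted p = 4.42e-12), and the blue cone mean was 38.0-fold the rod mean (log2, rod minus blue cone, -4.96, adjusted p = 1.20e-09). Pan-BC exceeded blue cones 2.97-fold (log2 1.57), which was called against 0 (adjusted p = 3.32e-05) and not past 2-fold (adjusted p = 0.0546). Rods held 0.89% of the pan-BC level of *Lmna* and 1.20% of the pan-BC sum of bipolar markers. In blue cones these shares were 33.63% and 19.92%, and the part of bipolar or other cells in the blue cone value was not tested. Horizontal cell markers summed to 3381 to 4062 in pan-BC, 54.6 to 90.3 in blue cones and 28.7 to 57.3 in rods (3575 to 3871 for ON-BC, and for OFF-BC 1215 to 1350), with *Lhx1* and *Onecut1* of the 5 at 0 in rods. The study's RT-qPCR found markers of other retinal classes, *Lhx1* among them, depleted in ON and OFF bipolar cells relative to whole retina. The part of horizontal cells in the *Lmna* difference was not tested. Microglial markers summed to 385 to 839 in blue cones, above all other libraries (22.3 to 221). Müller glia markers summed to 1768 to 2886 in rods, 13603 to 17001 in blue cones and 6356 to 12551 in bipolar cells. For astrocyte markers these sums were 3830.5 to 5057, 15879 to 19057 and 5717 to 7468. Of these 4 markers, *Pax2* was at 0 in every pan-BC, ON-BC, rod and blue cone library. Like *Lmna*, the Müller glia and astrocyte sums were both lowest in rods, but unlike it they were higher in blue cones than in bipolar cells. The part of such cells in the *Lmna* differences was not tested.

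At the chromatin level rods also stood apart at *Lmna*, but not at all regions at or near its starts. At the curated upstream start (chr3:88503210-88503409, exonic, centred 43 bp inside the gene) the rod libraries held 3.12 and 17.6, against 129 and 117 for pan-BC, 154 and 117 for ON-BC, 97.0 and 96.4 for OFF-BC, 88.1 and 103 for blue cones and 114 and 183 for green cones. At a region 6732 bp further upstream (chr3:88509985-88510184), which lies 53 bp beyond the 5′ end of the RefSeq gene span with its predicted transcripts, rods held 11.7 and 10.2, and the other 10 libraries 98.3 to 272. At a region 219 bp inside the internal start (chr3:88492994-88493193, intronic), named after its values were seen, rods held 119 and 148, next to 139 and 170 in OFF-BC, 219 and 221 in pan-BC and 301 to 350 in cones. The rod and OFF-BC ranges overlapped there, so the region beside the internal start was open in rods. Neither upstream region held more than 17.6 in a rod library.

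The pan-BC to rod differences passed 2-fold at the curated start (log2 3.82, treat adjusted p = 2.52e-05) and at the region further upstream (log2 4.32, adjusted p = 9.56e-09), but not at the region beside the internal start (log2 0.73, 95% interval 0.35 to 1.10). Rods were also below blue cones (log2 -3.46 and -3.94, adjusted p = 0.000605 and 1.84e-07) and below green cones (log2 -4.05 and -3.42, adjusted p = 7.67e-05 and 2.00e-06) at both upstream regions. In the peak lists, a peak at the curated start was called in 2 of 2 libraries of each other population, double-sorted green cones included, and in 1 of 2 rod libraries, where its fold enrichment was 4.66. The internal start carried a peak in all 14 libraries, counting an overlap of 1 bp with its promoter window. The overlap was under 100 bp in both rod libraries, ON-BC replicate 1, OFF-BC replicate 2 and blue cone replicate 1. The 2 regions that were barely read in rods are shown with CG in capitals.
Lmna, curated upstream start: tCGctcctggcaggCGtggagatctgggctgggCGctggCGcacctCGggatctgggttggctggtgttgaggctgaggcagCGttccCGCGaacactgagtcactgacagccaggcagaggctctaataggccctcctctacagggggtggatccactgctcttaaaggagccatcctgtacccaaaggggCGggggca
Lmna, 5′ end of the gene span: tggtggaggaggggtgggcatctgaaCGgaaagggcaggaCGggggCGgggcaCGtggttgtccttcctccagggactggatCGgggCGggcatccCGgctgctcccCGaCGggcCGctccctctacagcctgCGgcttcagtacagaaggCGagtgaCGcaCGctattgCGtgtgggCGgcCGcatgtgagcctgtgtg
They hold 9 and 17 CG.

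**Figure D1:**
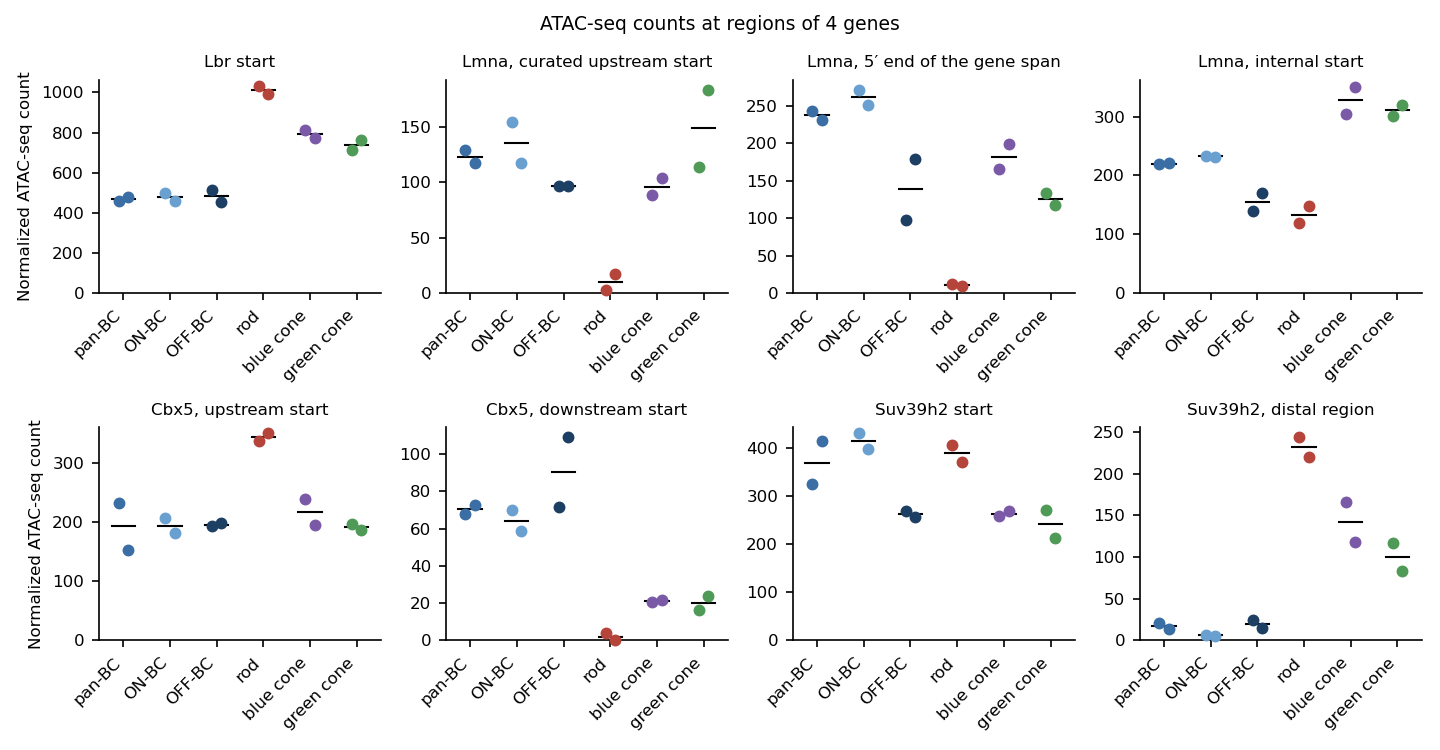
Normalized ATAC-seq counts (linear axis from 0) at 8 regions of *Lbr*, *Lmna*, *Cbx5* and *Suv39h2* in the 12 libraries of 6 populations. Points are libraries and lines are means of 2. Rods lie near 0 at both upstream regions of *Lmna* and at the downstream start of *Cbx5*, with 119 and 148 at the region 219 bp inside the internal *Lmna* start. Rods lie above every other library at the *Lbr* start and at the distal region of *Suv39h2*.

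The B-type lamins, which are permanently anchored in the envelope, went the other way from *Lmna* in rods. *Lmnb1* was read at 150, 159 and 123 in rods, 38.3, 43.4 and 24.5 in pan-BC, 38.2, 33.3 and 30.8 in the ON-BC libraries, 31.3, 31.2 and 35.3 in OFF-BC and 31.6, 17.5 and 16.3 in blue cones. Rods lay above all others, and the other 4 populations overlapped. Rods exceeded pan-BC 4.07-fold (log2, pan-BC minus rod, -2.03, SE 0.31, treat adjusted p = 0.00539) and blue cones 6.62-fold (log2 2.73, adjusted p = 0.000212). Pan-BC and blue cones differed by 0.70 on the log2 scale, near the threshold against 0 (adjusted p = 0.0479) and with overlapping ranges.

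*Lmnb2* was read at 547, 465 and 648 in rod libraries, 362, 432 and 440 in blue cones, 192, 169 and 209 in pan-BC, 198, 238 and 245 in ON-BC and 168, 155 and 188 in OFF-BC. Both photoreceptor populations lay above every bipolar library, and the rods above the blue cones without overlap. The rod to pan-BC difference passed 2-fold (2.91-fold, log2 -1.53, adjusted p = 0.00577). Rods and blue cones differed, without passing 2-fold (log2 0.42, adjusted p against 0 = 0.0321).

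Scaling by library totals in place of size factors shifted the median pan-BC minus rod difference over all genes from 0.21 to 0.55 and took the 2-fold calls of *Lbr*, *Lmnb1* and *Lmnb2* away (log2 -1.15, -1.68 and -1.18, adjusted p = 0.205, 0.0527 and 0.303). The direction of all 3 remained, as did the calls of *Lmna* and *Suv39h2*.

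The *Lmnb1* promoter was open in all 12 libraries (normalized counts of 259 to 498) and none of the 6 comparisons passed 2-fold there. Of the 57 regions assigned to the 9 genes by nearest start or promoter window, 23 belonged to *Lmnb1*, and they split in both directions. In pan-BC, 9 were past 2-fold more open and 4 less open than in rods, where 40.3% of all 108448 regions tested were more open and 11.2% less open. The most read of these 13, 37365 bp upstream, held 678 and 629 in rod libraries, 341 and 390 in blue cones, 412 and 407 in green cones, 151 and 70.1 in OFF-BC, 30.4 and 43.3 in pan-BC and 20.9 and 14.6 in ON-BC. Photoreceptors lay above all bipolar cells, and OFF-BC above ON-BC. The pan-BC minus rod and ON-BC minus OFF-BC differences both passed 2-fold (log2 -4.13 and -2.49, adjusted p = 6.86e-08 and 0.00212), though *Lmnb1* RNA did not differ detectably between ON-BC and OFF-BC (log2 0.06, 95% interval -0.59 to 0.71). A group of distal regions had the reverse pattern. The one 94312 bp downstream held 44.8 and 63.3 in pan-BC, 68.7 and 92.2 in the ON-BC libraries, 12.1 and 10.7 in OFF-BC, 2.59 and 0 in blue cones, 1.54 and 0 in green cones and 0 in both rod libraries. At *Lmnb2*, the start at 80918245 on chromosome 10 had a peak in all 14 libraries, and the other start, at 80906412, in none. The region at the first of these held 156 and 150 in rods and 43.9 to 82.7 elsewhere, a difference from pan-BC called against 0 (adjusted p = 0.000328) and not past 2-fold. The median pan-BC minus rod difference of all promoter regions was -0.37.

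The make-up of the lamin transcripts therefore differed more between populations than their sum. Per kilobase of exon, the 3 lamin genes summed to 151 ± 17.6 (OFF-BC) to 198 ± 18.3 (rod) (SD, n = 3), with all means in that span. *Lmna* made up 66.6 ± 2.15% of the sum in pan-BC, 61.8 ± 7.78% of that in ON-BC, 62.4 ± 2.08% of that in OFF-BC, 26.5 ± 1.67% in blue cones and 0.553 ± 0.196% in rods. In rods *Lmnb2* made up 73.5 ± 5.45% and *Lmnb1* 25.9 ± 5.56%. Blue cones had a similar share of *Lmnb2* (68.5 ± 1.20%) but a small one of *Lmnb1* (4.98 ± 2.47%).

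**Figure D2:**
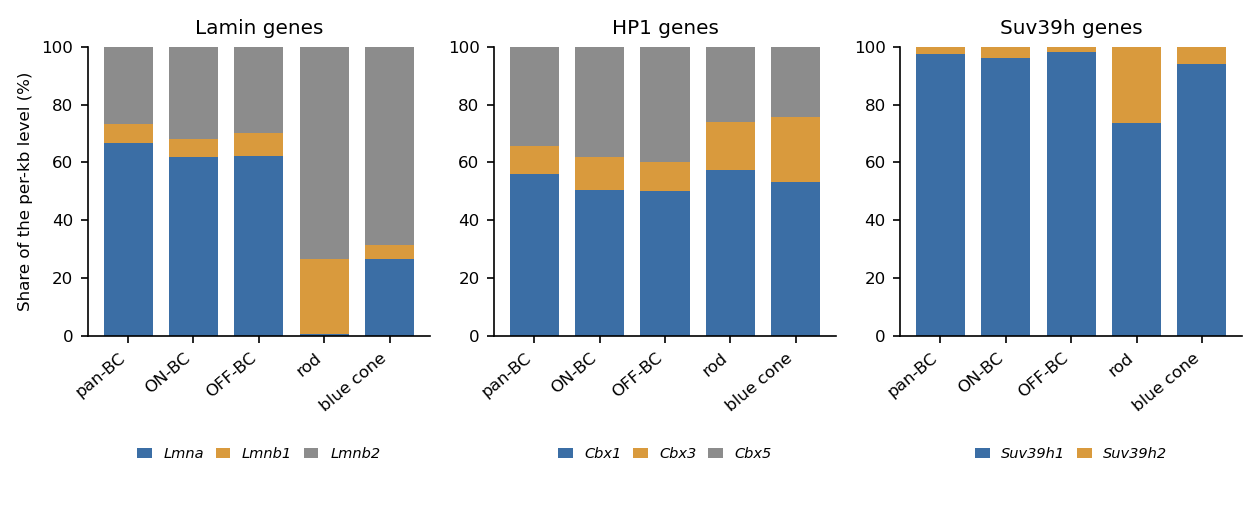
Mean share (%, n = 3 libraries) of each gene in the summed per-kilobase RNA-seq level of its family, for lamins, HP1 genes and *Suv39h* genes in 5 populations. *Lmna* is 66.6% of the lamin sum in pan-BC and 0.553% in rods, *Cbx1* is 50.04% to 57.4% of the HP1 sum in every population, and *Suv39h2* is 26.5% of the *Suv39h* sum in rods and at most 5.93% elsewhere.

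The HP1 genes moved far less. *Cbx1* (HP1 beta) was read at 1583, 1654 and 1398 in pan-BC, 1319, 1420 and 1364 in the ON-BC libraries, 1664, 1485 and 1478 in OFF-BC, 1027, 1268 and 1181 in rod libraries and 867, 1030 and 1084 in blue cones. Every bipolar library lay above every photoreceptor library, and the pan-BC to rod difference was small (log2 0.42, adjusted p against 0 = 0.00255). No 2 neighbours in its order of levels differed. Its promoter region was open in rods at 199 and 153 and in pan-BC at 81.6 and 71.3, a difference in the other direction (log2 -1.18, adjusted p against 0 = 0.000751) that did not pass 2-fold. For all promoter regions the median of this difference was -0.37. *Cbx1* overlaps a pseudogene, Gm11517, on the other strand with no shared exonic base.

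*Cbx3* (HP1 gamma) was read at 209, 179 and 196 in pan-BC, 249, 179 and 256 in the ON-BC libraries, 257, 198 and 217 in OFF-BC, 203, 287 and 236 in rod libraries and 278, 328 and 314 in blue cones. Rods overlapped all others, and blue cones were the highest, with no library below 278. It was the gene of the 9 for which no pan-BC to rod difference was called (log2 -0.30, 95% interval -0.68 to 0.07, adjusted p against 0 = 0.127), and this value turned to 0.04 with library totals. Pan-BC and blue cones differed (log2 -0.66, adjusted p against 0 = 0.0031). Its 3 promoter regions differed little between pan-BC and rods (log2 -0.14, 0.17 and 0.07, with intervals that stay between -0.51 and 0.67). The most read of them, 581 bp upstream, lies nearer to the start of *Hnrnpa2b1*. *Cbx1* and *Cbx3* have processed copies elsewhere in the genome, and the fate of reads shared with these was not tested.

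*Cbx5* (HP1 alpha) was the most bipolar-enriched of the 3. It was read at 2953, 3068 and 3042 in pan-BC, 3306, 2746 and 3857 in the ON-BC libraries, 4196, 3595 and 3959 in OFF-BC, 1741, 1448 and 1791 in rod libraries and 1718, 1334 and 1259 in blue cones. All bipolar libraries exceeded all photoreceptor libraries, and rods and blue cones overlapped. The pan-BC mean was 1.82-fold the rod mean (log2 0.87, SE 0.14, adjusted p against 0 = 1.72e-05) and 2.1-fold the blue cone mean (log2 1.08, adjusted p = 1.71e-06), neither past 2-fold. OFF-BC passed 2-fold over blue cones (2.73-fold, log2 1.46, treat adjusted p = 0.00675), where 35.5% of all genes differed past 2-fold in either direction. Per kilobase, *Cbx5* made up 34.4 ± 1.76% of the HP1 sum in pan-BC and 39.97 ± 1.10% in OFF-BC, against 26.1 ± 4.14% in rods and 24.3 ± 5.12% in blue cones. The share of *Cbx3* was 9.70 ± 0.971% for pan-BC, 16.5 ± 1.91% for rods and 22.6 ± 1.17% for blue cones, and the HP1 sum fell from 973 ± 43.7 per kilobase in pan-BC to 709 ± 49.7 in rods and 658 ± 23.7 in blue cones.

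*Cbx5* has 2 RefSeq starts, and they differed in opposite directions. At the downstream start (chr15:103215274-103215473, intronic to the longer transcripts) normalized counts were 68.0 and 73.0 in pan-BC, 70.2 and 58.6 in the ON-BC libraries, 71.4 and 109 in OFF-BC, 20.7 and 21.7 in blue cones, 16.1 and 23.9 in green cones and 3.89 and 0 in rods. Bipolar libraries lay above all cones, and cones above rods. A region 494 bp upstream of the other start (chr15:103240247-103240446) lies nearer to the start of *Hnrnpa1* than to that of *Cbx5*. Rods held 788 and 701 there, green cones 439 and 451, blue cones 385 and 364 and bipolar cells 170 to 275.

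Pan-BC exceeded rods past 2-fold at the downstream start (log2 5.01, adjusted p = 4.91e-06) and fell below rods at the other region (log2 -1.79, adjusted p = 0.000843) and at one 361 bp inside the gene (134 and 143 against 536 and 537, log2 -1.95, adjusted p = 0.000311). The difference at the upstream start itself did not pass 2-fold (232 and 153 in pan-BC, 337 and 350 in rods, log2 -0.86, treat adjusted p = 0.927, adjusted p against 0 = 0.00074). Rods were below blue and green cones at the downstream start (log2 -3.33 and -3.22, adjusted p = 0.00473 and 0.00609). Both calls were lost without rod replicate 2 (adjusted p = 0.0883 and 0.110), the library at 0, the green cone call also without green cone replicate 2 (0.0877), and both with a pseudocount of 8 (0.354 and 0.505). A peak was called at the downstream start in 2 of 2 libraries of each bipolar population and of blue cones, in 1 of 2 single-sorted green cone libraries, and in 0 of 2 of rods and of double-sorted green cones. The 2 regions with opposite directions are shown with CG in capitals.
Cbx5, downstream start: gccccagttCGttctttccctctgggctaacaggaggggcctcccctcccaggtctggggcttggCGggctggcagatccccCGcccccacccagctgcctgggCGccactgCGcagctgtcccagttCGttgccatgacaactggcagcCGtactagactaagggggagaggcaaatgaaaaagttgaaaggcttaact
Cbx5, region upstream of the other start: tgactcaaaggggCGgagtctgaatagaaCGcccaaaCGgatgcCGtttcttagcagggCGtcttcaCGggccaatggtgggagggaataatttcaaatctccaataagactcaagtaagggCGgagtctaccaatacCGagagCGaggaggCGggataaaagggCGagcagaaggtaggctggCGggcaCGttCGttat
They hold 7 and 14 CG.

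The *Suv39h* genes, the writers of the mark, were both higher in photoreceptors. *Suv39h1* was read at 1515, 1785 and 1527 in blue cones, 1281, 1142 and 1100 in rods, 805, 747 and 776 in OFF-BC, 658, 600 and 578 in pan-BC and 623, 639 and 556 in ON-BC. The order was blue cones, rods, OFF-BC and then pan-BC with ON-BC, with no overlap between successive steps except the last. It was the one gene of the 9 called different between ON-BC and OFF-BC (log2 -0.36, 95% interval -0.58 to -0.14, adjusted p against 0 = 0.0165), where 27% of all genes were called, and the value was the same size without OFF-BC replicate 3 (-0.36). The call was lost without ON-BC replicate 3 and without OFF-BC replicate 1. Blue cones exceeded pan-BC past 2-fold (2.63-fold, log2 -1.39, treat adjusted p = 0.00305), a call lost with library totals (log2 -1.11, adjusted p = 0.397). Rods exceeded pan-BC 1.92-fold (log2 -0.94, adjusted p against 0 = 3.10e-07).

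*Suv39h2* was highest in rods, as were *Lbr*, *Lmnb1* and *Lmnb2*. It was read at 542, 544 and 522 in rod libraries, 116, 127 and 142 in blue cones, 14.9, 13.1 and 30.6 in pan-BC, 27.9, 27.4 and 31.8 in ON-BC and 13.4, 30.0 and 8.83 in OFF-BC. Rods lay above blue cones and these above all bipolar libraries, which overlapped and rested on 8 to 31 reads each. The rod mean was 27.4-fold the pan-BC mean (log2 -4.81, SE 0.37, adjusted p = 5.95e-08), 18.5-fold the ON-BC mean and 30.8-fold the OFF-BC mean, and the blue cone mean was 6.56-fold the pan-BC mean (log2 -2.75, adjusted p = 0.000485). The 4.18-fold difference of rods from blue cones only just passed 2-fold (log2 2.06, adjusted p = 0.0363), and the call was lost when any 1 of the 6 libraries was left out (adjusted p = 0.0567 to 0.0899), without the filter (0.0520) and with library totals (0.0626). Per kilobase it made up 26.5 ± 1.29% of the *Suv39h* sum in rods, 5.93 ± 0.798% in blue cones and 1.75 ± 1.16% to 3.66 ± 0.566% in bipolar cells.

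In pan-BC *Suv39h2* stood at 3.64% of its rod level, with the rod marker sum at 1.82% of its own. These shares were 5.42% and 1.04% in the ON-BC libraries, 3.25% and 0.40% in the OFF-BC ones, and 23.92% and 10.37% in blue cones. How much of the *Suv39h2* reads outside rods came from rods was not tested. The gene overlaps *Dclre1c* on the other strand over 18397 bp, 870 of them exonic in both, and the libraries were not stranded, so reads there cannot be assigned by strand. *Dclre1c* itself was read at 277, 267 and 252 in rods, 136 to 152 in pan-BC and 124 to 249 in blue cones, a far smaller spread than that of *Suv39h2*.

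The *Suv39h2* promoter did not separate rods from pan-BC (406 and 371 against 325 and 413, log2 -0.08, 95% interval -0.43 to 0.27), and it carried a peak in all 14 libraries. Regions away from it did. One 15038 bp upstream (chr2:3489925-3490124, outside the gene) held 244 and 220 in rod libraries, 166 and 119 in blue cones, 117 and 83.1 in green cones, 20.8 and 13.7 in pan-BC, 5.97 and 5.86 in ON-BC and 24.2 and 14.6 in OFF-BC. One 6254 bp inside the gene (chr2:3468633-3468832, intronic) held 171 and 175 in rod libraries, 56.99 and 57.8 in blue cones, 91.4 and 88.7 in green cones and 0 to 18.4 in bipolar cells. Photoreceptors lay above bipolar cells without overlap at both, and rods above cones. Pan-BC fell below rods past 2-fold (log2 -3.70 and -3.63, adjusted p = 2.82e-06 and 0.00018). Both are shown because, unlike the promoter, they were more open in photoreceptors, which had more *Suv39h2* RNA, than in bipolar cells. Within bipolar cells the distal region was least read in ON-BC. Its mean of *Suv39h2* RNA was 29.0, against 19.5 in pan-BC and 17.4 in OFF-BC, with no difference called among these. The intronic region lies in the stretch shared with *Dclre1c*. Capitals mark matches, on either strand, to TAATCC, the core bound by CRX and OTX2, and to the homeodomain cores TAATTA and TAATTG.
Suv39h2, distal region: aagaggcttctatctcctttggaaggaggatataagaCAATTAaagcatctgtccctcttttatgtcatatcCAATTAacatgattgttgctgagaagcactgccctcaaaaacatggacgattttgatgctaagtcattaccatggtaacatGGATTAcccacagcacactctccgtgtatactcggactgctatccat
Suv39h2, intronic region: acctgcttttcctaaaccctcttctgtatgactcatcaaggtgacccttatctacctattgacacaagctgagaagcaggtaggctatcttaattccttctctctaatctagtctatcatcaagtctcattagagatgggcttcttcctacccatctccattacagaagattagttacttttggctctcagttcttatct
The distal region holds 1 TAATCC and 2 TAATTG, read on the minus strand, and the intronic one none of the 3 motifs. Of all 110715 regions of 200 bp, 21.8% hold TAATCC, 5.2% TAATTA (which is its own reverse complement) and 6.9% TAATTG, and of the 57 regions of the 9 genes 10, 2 and 2 do. No region of *Lbr* or *Lmna* holds any of the 3.

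The *Suv39h1* promoter held 528 and 464 in rod libraries, 267 and 194 in blue cones, 240 and 214 in green cones and 163 to 273 in bipolar cells. Rods were above all other libraries, though *Suv39h1* RNA was highest in blue cones. Pan-BC minus rod was -0.94 on the log2 scale (adjusted p against 0 = 0.000163), where the median of all promoter regions was -0.37.

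**Figure D3:**
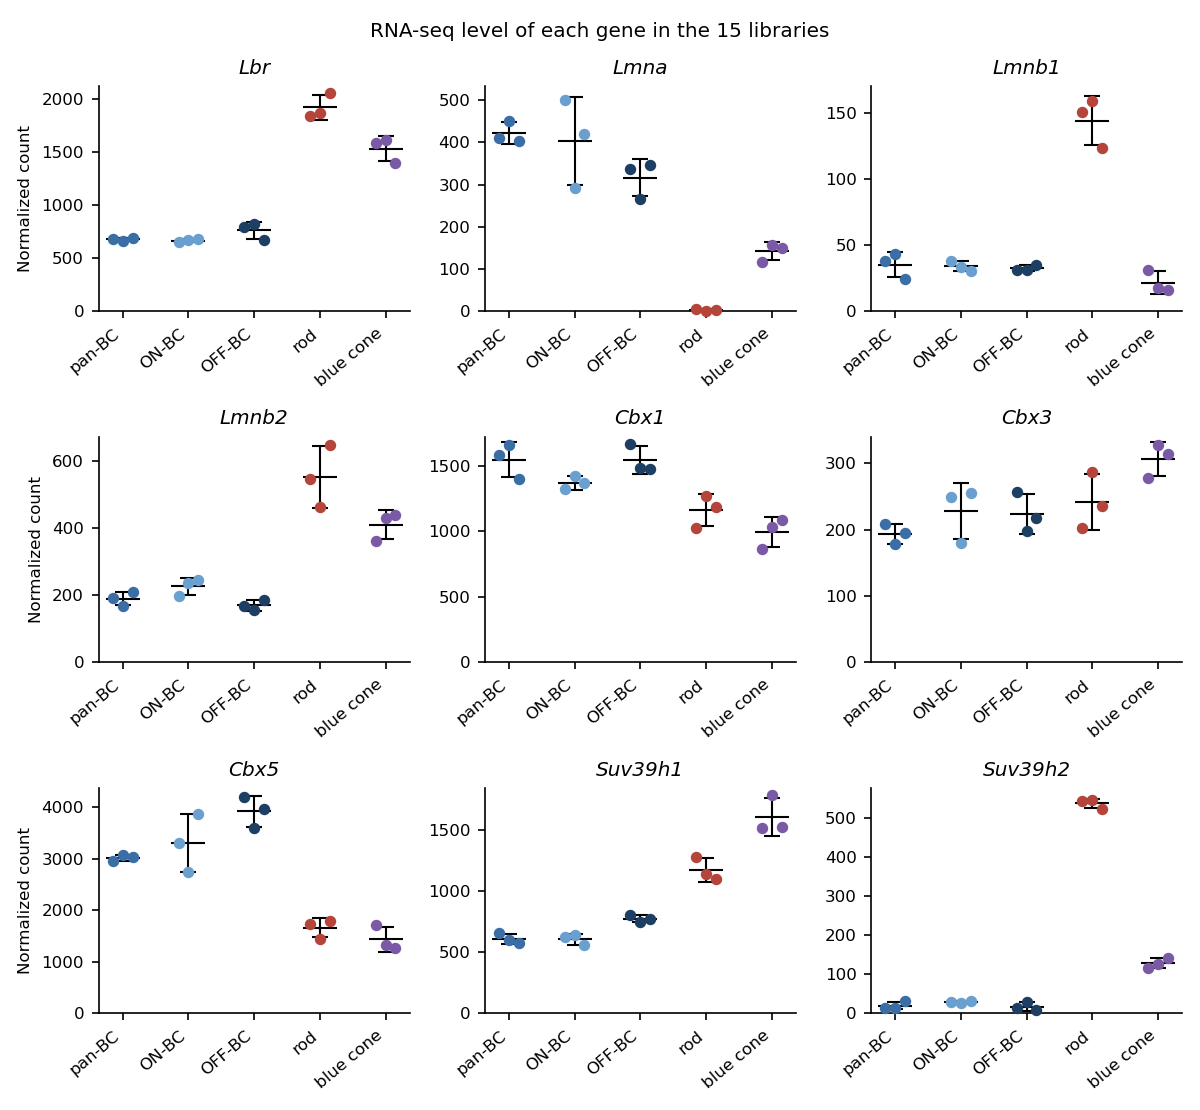
RNA-seq level of each of the 9 genes (normalized counts, linear axes from 0) in 15 libraries of 5 populations. Points are libraries, and bars are the mean ± SD of 3. *Lmna* in rods lies at 2.05 to 4.85 and *Suv39h2* in rods at 522 to 544, both apart from all other libraries, and *Cbx3* ranges overlap in most populations.

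Taking the 9 genes by comparison, 5 of 9 differed past 2-fold between pan-BC and rods, where 43.6% of all genes tested did. Of the 9, *Lmna* was the 1 gene higher in pan-BC (27.8% of all genes), and *Lbr*, *Lmnb1*, *Lmnb2* and *Suv39h2* were the 4 lower (15.8% of all genes). Their median log2 fold change was -0.94, and that of all genes 0.21. Against 0, 8 of 9 were called, next to 79.5% of all genes. Between pan-BC and blue cones, *Suv39h1* and *Suv39h2* were the 2 of 9 past 2-fold (36.3% of all genes), both lower in pan-BC (13.7%), and 9 of 9 were called against 0 (76.3%). Between rods and blue cones 3 of 9 passed (15.9% of all genes), with *Lmnb1* and *Suv39h2* higher (4.63%) and *Lmna* lower in rods (11.3%), and 6 of 9 were called against 0 (57.5%).

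Between ON-BC and OFF-BC none of the 9 passed 2-fold by limma, where 6.55% of all genes did, and edgeR and DESeq2 on recovered reads gave 0 as well. By limma against 0, *Suv39h1* alone was called. With the replicate number as a block *Lmnb2* was called as well (log2 0.41, adjusted p = 0.0495). The largest of the 9 differences was that of *Suv39h2* (log2 0.87, 95% interval 0.09 to 1.65, adjusted p against 0 = 0.0938), with overlapping ranges, called without OFF-BC replicate 2 (1.33, adjusted p = 0.00831), and *Lmnb2* followed (0.41, 0.08 to 0.75, adjusted p = 0.0647), with ON-BC above OFF-BC in all libraries. Intervals of the other 6 reached no further from 0 than 0.87. The libraries of both populations did not overlap for 8 of 9 genes in pan-BC and rods (83.7% of all genes), 8 in pan-BC and blue cones (78.4%), 6 in rods and blue cones (60.9%) and 3 in ON-BC and OFF-BC (42.2%). Comparisons that share a population share its libraries and are not independent.

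**Figure D4:**
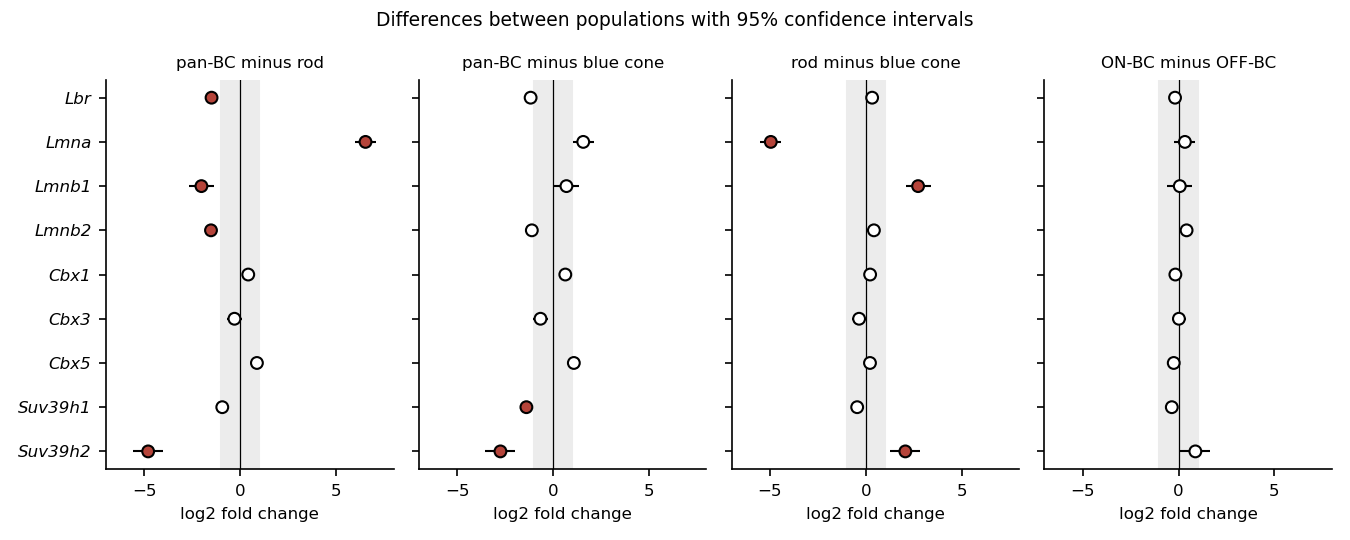
log2 fold change of each of the 9 genes in 4 comparisons of RNA-seq populations, with 95% confidence intervals from limma. Filled points passed the 2-fold test, and grey marks differences under 2-fold. *Lmna* (6.53) and *Suv39h2* (-4.81) lie farthest from 0 in pan-BC minus rod, and no gene is filled in ON-BC minus OFF-BC.

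Of the 36 pairs of populations that were neighbours in the order of levels of a gene, 13 differed. The gap between bipolar cells and the nearest photoreceptor population differed for *Lbr*, *Lmna*, *Lmnb2*, *Cbx5*, *Suv39h1* and *Suv39h2*, and pairs within the bipolar cells only for *Suv39h1* (OFF-BC over pan-BC, log2 0.34, adjusted p against 0 = 0.0269).

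Of the 57 accessible regions, 23 passed 2-fold between pan-BC and rods, where 51.6% of all 108448 regions tested did. Of these 14 were more open in pan-BC (40.3% of all regions) and 9 less open (11.2%). Among the 14 promoter regions 3 did (31.4% of all promoter regions), which are the *Lmna* start and the 2 *Cbx5* regions shown above. The *Cbx5* region upstream of the gene lies nearer to the *Hnrnpa1* start. Counts were 10 for pan-BC and blue cones (35.9% of all regions), 13 for pan-BC and green cones (32.1%), 5 for ON-BC and OFF-BC (7.39%), 4 for rods and blue cones (10%) and 4 for rods and green cones (11.2%). No promoter region of the 9 genes passed 2-fold between pan-BC and either cone population, or between ON-BC and OFF-BC (15.5%, 12.6% and 1.26% of all promoter regions). In the peak lists each of the 9 genes had a promoter peak in all 14 libraries. With an overlap of at least 100 bp *Lmna* had one in 13, and at a -log10 q of at least 10 *Lmnb2* had one in 13. In single libraries 43.4% to 54.6% of all 26180 RefSeq genes, expressed or not, had a promoter peak. The share of all genes with one in every library was not counted.

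The partners of these genes were read from 5 lists. Of 25 lamina and envelope genes tested, 1 was higher and 6 were lower in pan-BC than in rods past 2-fold (median log2 -0.56). That is 28% of the list called, where 43.6% of all genes were (27.8% higher and 15.8% lower). The largest were the nesprins that link the envelope to the cytoskeleton, *Syne3* (27.9 in pan-BC and 1359 in rods, log2 -5.64, adjusted p = 2.15e-09) and *Syne2* (340 and 5974, log2 -4.15, adjusted p = 1.06e-10), the LEM-domain gene *Emd* in the other direction (480 and 98.6, log2 2.30, adjusted p = 7.31e-05), and the nuclear pore gene *Nup107* (482 and 1817, log2 -1.91). Against blue cones 3 were higher and 4 lower, which is 28% of the list, where 36.3% of all genes were called. They were led by *Syne3* (log2 -2.93), *Emd* (2.82), *Syne2* (-2.70) and *Syne1* (1.86). Rods exceeded blue cones in *Syne3* (log2 2.71, adjusted p = 0.000766) and *Syne1* (1.85, adjusted p = 0.00149), the 2 of 25 called. That is 8% of the list, where 15.9% of all genes were called. *Syne3* was also the 1 of 25 called between ON-BC and OFF-BC, where 6.55% of all genes were (12.2 and 58.6, log2 -2.34, adjusted p = 0.0136). The cone marker sum was higher in every OFF-BC than in every ON-BC library and the rod marker sum lower (3580 to 17891 against 20202 to 25438), and the part of photoreceptor RNA in this difference was not tested.

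Of 18 genes that write, erase or read H3K9 and H4K20 methylation, 2 were higher and 3 lower in pan-BC than in rods (median log2 -0.91). That is 27.8% of the list called, where 43.6% of all genes were. *Cdyl2*, a chromodomain gene, stood at 94.96 and 4.46 (log2 4.49, adjusted p = 5.10e-06), and the demethylase *Kdm4c* at 1168 and 10089.5 (log2 -3.11, adjusted p = 3.50e-11). The methyltransferase *Setdb2* (log2 -2.37) and the reader *Uhrf1* (2.03) followed. *Kdm4c* (log2 -2.72) and *Setdb2* (-2.88) were also lower in pan-BC than in blue cones, where *Uhrf1* (2.65) and *Kdm1a* (1.68) were higher. These 4 are 22.2% of the list, where 36.3% of all genes were called. *Cdyl2* was the 1 of 18 that passed between rods and blue cones (log2 -5.27, adjusted p = 1.55e-06), where 15.9% of all genes did. None of the 18 did between ON-BC and OFF-BC, where 6.55% of all genes did.

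Between pan-BC and rods, 43.6% of all genes passed 2-fold. Of 17 HP1 partners and silencing genes tested, 1 was higher and 3 were lower in pan-BC than in rods (23.5% of those tested, median log2 -0.48). These were *Morc3* (702 and 3618, log2 -2.37, adjusted p = 2.39e-08), *Incenp* (-1.76), *Trim28*, the KAP1 corepressor (1623 and 505, log2 1.68, adjusted p = 0.000731), and *Phf6* (-1.38). Against blue cones 2 were higher and 2 lower (*Trim28* 1.48, *Pphln1* -1.45, *Ahdc1* 1.43 and *Morc3* -1.30). That is 23.5% of those tested, where 36.3% of all genes were called. *Chaf1a*, the large subunit of the chromatin assembly factor that binds HP1, was the 1 of 17 that passed between ON-BC and OFF-BC (44.0 and 614, log2 -3.75, adjusted p = 9.26e-07), and none passed between rods and blue cones. Of all genes, 6.55% and 15.9% passed in these comparisons.

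LBR is also a sterol reductase. Of the 11 genes of late sterol synthesis described here, 2 were lower in pan-BC past 2-fold relative to rods, *Msmo1* (487 and 1755, log2 -1.85, adjusted p = 5.79e-05) and *Cyp51* (491 and 1502, log2 -1.61, adjusted p = 0.00056). That is 18.2% of the 11, where 43.6% of all genes were called. Against blue cones 2 were lower, *Cyp51* (-1.56) and *Sqle* (-1.43), and none of the 11 passed between rods and blue cones or between ON-BC and OFF-BC. Of all genes, 36.3%, 15.9% and 6.55% passed in these comparisons. The median of the 11 in pan-BC minus rod (0.14) lay near that of all genes (0.21).

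Linker histones and HMG proteins are other abundant packers of chromatin. Of 15 genes listed 11 were tested, since the filter kept genes read in at least 1 population. Of these 2 were higher and 5 lower in pan-BC than in rods (63.6% called, against 43.6% of all genes, median log2 -1.63), a share that covers the genes that passed the filter alone. *Hmgb2* stood at 12.6 and 625 (log2 -5.50, adjusted p = 5.50e-09), *Hmgn3* at 9941 and 235 (5.41, adjusted p = 4.00e-14), *Hist1h1c*, which encodes H1.2, at 50.8 and 1481 (-4.83, adjusted p = 2.54e-10) and *Hmgn2* at 79.3 and 619 (-2.87). Against blue cones 2 were higher and 5 lower, led by *Hist1h1b* (3.74, listed at 0 in the 3 blue cone libraries), *Hmgb2* (-3.39), *Hmgn2* (-3.35) and *Hist1h1c* (-2.24). That is again 63.6% of those tested, where 36.3% of all genes were called. Between rods and blue cones *Hist1h1c* (2.59), *Hmgb2* (2.12) and *Hist1h1a* (3.28) were higher in rods and *Hmgn3* lower (-3.79, adjusted p = 3.17e-11). That is 36.4% of those tested, where 15.9% of all genes were called. None of the 11 passed 2-fold between ON-BC and OFF-BC, where 6.55% of all genes did.

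**Figure D5:**
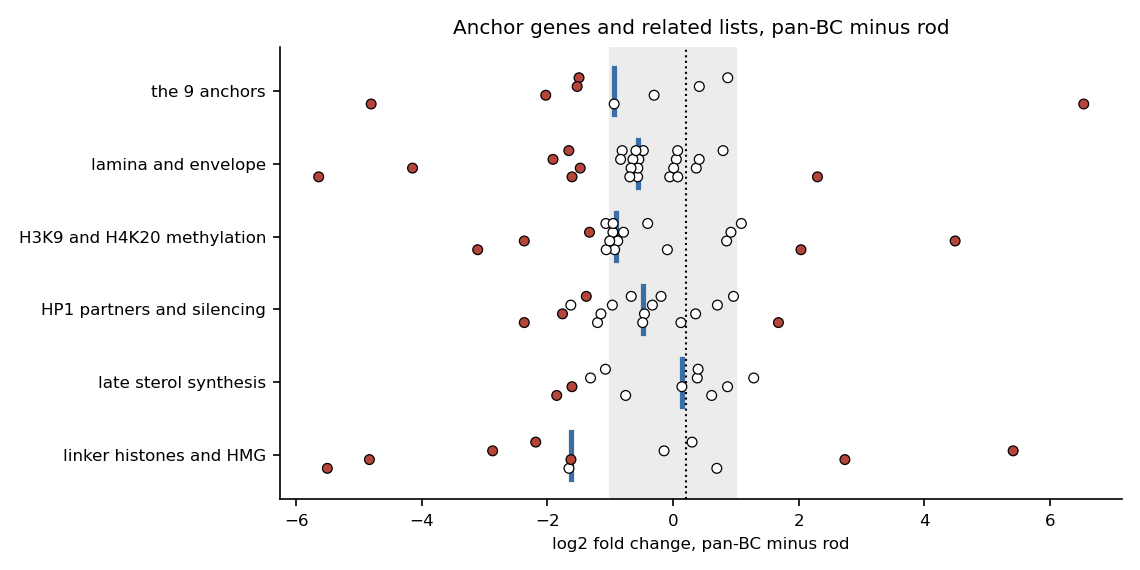
log2 fold change (pan-BC minus rod) of the 9 genes and of the tested genes of 5 related lists. Filled points passed the 2-fold test, blue bars are list medians, the dotted line is the median of all 14024 genes (0.21) and grey marks differences under 2-fold. The medians run from -1.63 for linker histones and HMG genes to 0.14 for late sterol synthesis.

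The genes whose levels ran most like each of the 9 across the 15 libraries were named by Pearson's r of log2 values, as a description over libraries that fall into 5 groups. They were *Lifr* (0.994) and *Gpatch2l* (0.993) for *Lbr*, *Tram1l1* (0.996) and *Susd4* (0.995) for *Lmna*, *Zfyve28* (0.977) and *Wisp3* (0.964) for *Lmnb1*, and *Fam53c* (0.984) and *Trp53inp2* (0.979) for *Lmnb2*. For the HP1 genes they were *Uqcrb* (0.962) and *Bcs1l* (0.958) for *Cbx1*, *Metap2* (0.952) and *Bpnt1* (0.915) for *Cbx3*, and *Phactr2* (0.979) and *Rogdi* (0.977) for *Cbx5*. *Gpm6b* (0.983) and *Gosr2* (0.982) were nearest to *Suv39h1*, and *Spty2d1* (0.986) and *1110037F02Rik* (0.985) to *Suv39h2*. Such likeness was common, with 1805 of 14024 genes over 0.9 for *Lbr*, 1001 for *Lmna* and 1319 for *Suv39h2*, and rare for *Lmnb1* (106) and *Cbx3* (6). Among the 9 themselves, *Suv39h2* was closest to *Lmnb2* (0.946) and *Lbr* (0.940) and ran opposite to *Lmna* (-0.908), and *Cbx5* ran opposite to *Lmnb2* (-0.879) and *Lbr* (-0.875).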

How the data were processed

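The authors mapped RNA-seq reads to mm10 with STAR 2.7.0d and assigned them to RefSeq genes by HTSeq. ATAC-seq reads were treated with Bowtie2, SAMtools and Picard 2.19.0 (the submitters' processing notes and the study's methods give different versions of the first 2), peaks were called in each library with MACS2 2.1.1, and reads were counted in 200 bp regions of the merged peaks. Both deposited tables hold signal values, counts over 1 size factor per library. Every value was a whole number of steps of its library, to within 0.01 read, which gave the reads back. In the authors' peak lists, the deposited columns hold a score, the fold enrichment, -log10 p and q values and a summit offset.

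Here log2(normalized count + 1) was fitted with limma 3.58.1 in R 4.3.3, with 1 level per population over all libraries of an assay, after edgeR's filterByExpr. A gene or region was called past 2-fold where treat against a log2 fold change of 1, with a trended prior, gave a Benjamini-Hochberg adjusted p under 0.05 over all genes or regions tested. "Against 0" is limma's moderated test on the same fit. The fit left 14024 of 24062 genes and 108448 of 110715 regions, and was tested on simulated data first. edgeR 4.0.16 and DESeq2 1.42.0 on recovered reads, other scalings, filters and pseudocounts (0.5 and 8), a replicate block and each library left out were alternatives. Each region was given to the gene whose RefSeq start was nearest. The study calls its replicates biological, and the labels do not tie them to animals. P-values measure the spread between these samples. Per-kilobase levels use the union of RefSeq exons.

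The 9 genes and the lists were chosen with earlier results of these data known. All 9 genes were named throughout. From each list the text names up to 4 genes per comparison, those with the largest change among the genes called, and for each of the 9 the 2 genes most like it. A gene of the sterol list is not reported here, and the counts and median of that list leave it out.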

Additional observations from a re-analysis of the deposited data

How the results depend on the processing

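Under other settings, 579 single values of the 9 genes and their regions kept their direction and their side of the threshold, 12 newly passed it, 8 lost it and 1 turned. With single libraries left out, the number of the 9 genes past 2-fold was 5 throughout for pan-BC minus rod, 2 for pan-BC minus blue cone, 0 for ON-BC minus OFF-BC and 2 for rod minus blue cone (3 with all libraries). Different from 0 were 8, 8 to 9, 0 to 2 and 4 to 7, and 11 to 15 of 36 neighbouring pairs differed. The single call in ON-BC minus OFF-BC became 0 without ON-BC replicate 3 or OFF-BC replicate 1, and 2 without OFF-BC replicate 2 (*Suv39h2* added), with TMM scaling and with the replicate block (*Lmnb2* added in both). Regions past 2-fold numbered 20 to 24 for pan-BC minus rod, 4 to 9 for pan-BC minus blue cone (4 without pan-BC replicate 2, 5 without blue cone replicate 2), 7 to 9 for pan-BC minus green cone (7 without pan-BC replicate 2, 8 without green cone replicate 2), 2 to 5 for ON-BC minus OFF-BC (2 without ON-BC replicate 2 or OFF-BC replicate 2, 3 without OFF-BC replicate 1), 2 to 4 for rod minus blue cone (2 without rod replicate 2) and 3 to 4 for rod minus green cone.

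With edgeR, 4 genes passed 2-fold between pan-BC and blue cones (*Lbr* and *Lmna* added), and 16 regions did, with 20 for pan-BC minus green cone, 10 for ON-BC minus OFF-BC and 11 for rod minus blue cone. DESeq2 gave 3 regions for ON-BC minus OFF-BC. Scaling to library totals left 2 genes for pan-BC minus rod and gave 8 and 7 regions for rod minus blue and green cones, and a pseudocount of 8 gave 2 and 2. Over all genes, library totals moved the share of calls higher in pan-BC from 63.8% to 74.0% against rods and from 62.4% to 71.7% against blue cones. The median of all regions moved from 0.15 to -0.14 for ON-BC minus OFF-BC, and the share of calls higher in ON-BC from 62.1% to 46.7% (78.8% with DESeq2, 83.0% with a pseudocount of 8). All regions past 2-fold numbered 8010 for ON-BC minus OFF-BC (12927 with edgeR, 4791 with DESeq2), 10871 for rod minus blue cone (19112 with edgeR, 5962 with a pseudocount of 8) and 12159 for rod minus green cone (21910 and 5108). Directions turned for small values: *Cbx3* in pan-BC minus rod (0.045 with library totals) and, in ON-BC minus OFF-BC with 1 library left out, *Lmnb1* (-0.023 to 0.13) and *Cbx3* (-0.078 to 0.18). The cause was not tested.

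The labels do not tie same-numbered libraries to the same mice, and their deviations correlated at -0.081 to 0.222 (ON-BC with OFF-BC -0.076, 0.222 and -0.065), so the numbers were not taken as pairs. ON-BC and OFF-BC libraries of a number have the same genotype and age, and whether they share animals is not given in the sources used here. The replicate block gave 5, 2, 0 and 3 genes past 2-fold and 23, 10, 5, 4, 5 and 13 regions, and apart from the ON-BC minus OFF-BC count above moved no count by over 1.5 times. With 2 ATAC-seq libraries per population and 2 to 31 reads behind *Lmna* in rods and *Suv39h2* in bipolar cells, precision there is limited by counts.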
